A study of Homo sapiens with 12 samples.

Results

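The genes described here are the 100 most abundant long intergenic noncoding RNAs (lincRNAs) of DLD1 cells, an established human colorectal cancer line, apart from MALAT1, NEAT1 and the small nucleolar RNA hosts named SNHG. They were chosen by their measured level: of 7484 genes annotated as lincRNA and ranked, the 100 with the highest mean of log2(FPKM + 1) over 6 input libraries were taken. FPKM scales fragments by the length of the gene and the size of the library. Of the 7484 ranked genes, 440 were above 0 in any library. Levels are therefore given as a description, and only the difference between the groups was tested. That difference is not independent of the ranking for the 26 members at 0 under 1 hairpin, whose difference is 2 times their mean level in size, so their counts and tests are given as a description too.

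The cells, at passage 5, carried a control short hairpin RNA (shNC) or one labelled as directed at NAT10 (shNAT10), the acetyltransferase that writes N4-acetylcytidine (ac4C) on RNA. DLD1 is 1 established line, so the libraries model 1 genetic background. Each hairpin had 3 input libraries of total RNA broken into pieces of 100 to 200 nt, and the 6 immunoprecipitated libraries were not analysed here. The study also deposited a list of differential ac4C peaks.

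LincRNAs are transcribed by RNA polymerase II, mostly capped and often spliced, and carry no long open reading frame. Many stay in the nucleus and are short-lived, and some act as scaffolds or decoys for proteins, as hosts of small RNAs, or through the act of their transcription near neighbouring genes. They are known for levels that differ strongly between cell types, and a number of them are studied in colorectal cancer.

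By name, 73 of the 100 carried only the label of a sequenced clone, 13 had a LINC number, 10 were named as antisense to a protein-coding gene (-AS1) and 4 had another name. RefSeq symbols or synonyms matched 26 of them, and 16 of these had 1 promoter window in the RefSeq table of GRCh38.p14, from 250 bases before to 50 after the start of the gene. Both strands were searched for a TATA box (TATAAA), which occurred in 1 of the 16 windows against 11.6% of 34943 windows of all genes. A CCAAT box (CCAAT) occurred in 4 of the 16 against 34.6% of all windows. The GC box (GGGCGG) was in 10 against 44.9%, and an E-box (CACGTG) was in 1 against 7.23%. These letters describe the windows and do not show a bound factor.

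The promoter windows of 4 members are shown because their results are taken up later: NORAD, the best known of the members, and 3 lincRNAs that were above 0 in every shNC library and at 0 in every library labelled shNAT10. Matched motifs are in capitals, and each window is printed 5′ to 3′ on the minus strand of GRCh38.p14. NORAD, at chr20:36045618-36050960, has its window at chr20:36050911-36051210, with an E-box whose first base is at -138 from the start. DKFZP434K028, listed by RefSeq as MYRF-AS1 at chr11:61754029-61757664, has its window at chr11:61757615-61757914, with a GC box at 21 after the start. ELFN1-AS1, at chr7:1738630-1742310, has its window at chr7:1742261-1742560, with a CCAAT box at -129 and GC boxes at -58, -40 and -4. TMEM202-AS1, at chr15:72407779-72474239, has its window at chr15:72474190-72474489, with GC boxes read on the opposite strand at -18 and -10. Windows of the 3 zero-listed lincRNAs shared the GC box, which 44.9% of all windows hold.
NORAD: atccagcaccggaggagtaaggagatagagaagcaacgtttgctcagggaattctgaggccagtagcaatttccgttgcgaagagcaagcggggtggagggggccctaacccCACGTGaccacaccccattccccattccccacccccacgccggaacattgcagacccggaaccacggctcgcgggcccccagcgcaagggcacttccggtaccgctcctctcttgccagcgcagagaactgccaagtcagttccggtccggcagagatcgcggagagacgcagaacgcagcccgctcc
DKFZP434K028: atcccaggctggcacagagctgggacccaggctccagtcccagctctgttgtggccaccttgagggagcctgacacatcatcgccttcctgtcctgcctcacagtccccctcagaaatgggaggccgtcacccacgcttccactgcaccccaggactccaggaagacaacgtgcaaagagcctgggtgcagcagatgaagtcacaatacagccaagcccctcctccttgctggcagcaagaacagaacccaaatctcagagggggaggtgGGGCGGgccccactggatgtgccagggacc
ELFN1-AS1: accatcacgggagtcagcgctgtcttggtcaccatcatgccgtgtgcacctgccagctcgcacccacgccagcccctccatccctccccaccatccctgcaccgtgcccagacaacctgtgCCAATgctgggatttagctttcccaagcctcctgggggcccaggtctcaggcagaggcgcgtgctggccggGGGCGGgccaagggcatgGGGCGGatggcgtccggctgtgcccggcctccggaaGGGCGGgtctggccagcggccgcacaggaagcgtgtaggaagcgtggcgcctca
TMEM202-AS1: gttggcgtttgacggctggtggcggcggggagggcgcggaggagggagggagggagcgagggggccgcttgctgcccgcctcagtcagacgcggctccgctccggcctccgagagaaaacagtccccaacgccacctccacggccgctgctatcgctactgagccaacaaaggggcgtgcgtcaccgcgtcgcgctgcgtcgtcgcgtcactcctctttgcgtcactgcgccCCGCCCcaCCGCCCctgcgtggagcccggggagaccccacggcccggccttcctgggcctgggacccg

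MIRLET7BHG, at chr22:46085997-46113928 on the plus strand, is the only member of the list of microRNA hosts and contains members of the let-7 family, which silence growth-promoting mRNAs. Both 5p forms are shown because they share 1 seed, bases 2 to 8, in capitals. The let-7a form lies at chr22:46112752-46112773 and the let-7b form at chr22:46113691-46113712.
let-7a-5p: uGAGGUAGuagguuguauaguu
let-7b-5p: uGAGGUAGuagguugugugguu

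The input libraries held 2635200 to 2756547 recovered fragments on genes with shNC and 1222290 to 1303288 with the shNAT10 label. The targeted gene went against the label: NAT10 had FPKM 1.24, 3.95 and 2.89 under the control hairpin and 0, 28.1 and 31.4 with the shNAT10 label (exact two-sided permutation test p = 0.4, smallest possible 0.1). Replicates 2 and 3 with that label were thus above every control, and no direction below can be read as the result of a knockdown. DLD1 is epithelial, and 10 of 10 markers of colorectal epithelium were above 0. Their summed FPKM was 5236 to 5386 in shNC and 8291 to 8656 with the shNAT10 label. KRT8 held the largest part, at 3112, 3774 and 3294 against 5643, 5573 and 5866. EPCAM went the other way, at 226, 370 and 262 against 38.3, 80.3 and 128. Fitted differences were negative for EPCAM, VIL1, CDX2 and LGALS4 and positive for the other markers, and 0 passed limma's test. Fibroblast and muscle markers summed to 1.12 to 6.34 and 25.0 to 88.1, with 10 of 10 above 0 and VIM among them. Leukocyte markers summed to 0 to 4.40 and 2.52 to 6.29, with the defining genes CD3E, MS4A1, LYZ and CD68 at 0. Endothelial and erythroid markers reached at most 0.241 and neural markers at most 3.29. The part of these differences in the lincRNA results was not tested. Nothing stated that replicates were separate cultures, so p-values cannot be read as covering the spread between cultures. They rest on these samples only, and those of limma mostly on the spread of other genes in them.

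The level of a member ranged widely. The mean of log2(FPKM + 1) was at least 5 in 16 members and under 2 in 41, and the lowest value above 0 was FPKM 0.111 with a median of 43.6. MALAT1, left out by the rule, had a mean of 7.14 on this scale, and 5 members were higher. NEAT1, which builds nuclear paraspeckles, had 2.40, and 50 members were higher. At the lower edge, LINC01764 at rank 98 had a mean log2 of 1.34, AC104819.3 had 1.34 and AL138960.1 had 1.32. Just outside lay AC145422.1 with 1.32, CH17-340M24.3 (RefSeq ATP6AP1-DT) with 1.30 and AC009041.3 with 1.29. The edge was thus set by differences smaller than the spread of any of these genes between libraries.

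AC139769.2 was the most abundant, with FPKM 591, 679 and 662 under shNC and 1074, 1082 and 932 with the shNAT10 label. It was among the steadiest members, and its groups did not overlap. The fitted difference was 0.68 on the log2 scale (SE 0.52, limma with Benjamini-Hochberg adjustment, adjusted p = 0.754), so it did not pass the test. That SE rests mostly on the spread of other genes, and the SD of this gene was 0.106 in shNC and 0.121 with the shNAT10 label. AC112491.1 varied least, at 79.9, 82.3 and 88.2 in shNC and 63.8, 67.3 and 97.6 with the shNAT10 label. Its highest library was 1.53 times its lowest, against 1.83 for AC139769.2, and these were the 2 members within 2-fold over all 6 libraries. AC010618.3 stood at 174, 221 and 120 in shNC and at 210, 269 and 668 with the shNAT10 label, where replicate 3 was the high one. No function is given in the files for these clone-named RNAs.

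In a pair of other abundant members 1 library stood far above the rest. FP236383.3 had FPKM 147, 4292 and 442 in shNC and 181, 405 and 165 with the shNAT10 label. FP236383.2 had 385, 101 and 26.6 in shNC and 11.7, 4.34 and 13659 with the shNAT10 label. FP671120.4 was steadier, with 37.5, 37.3 and 68.3 against 108, 157 and 51.6. All 3 genes have a recovered length of 923 bases, as 7 genes of the table do, and whether the authors' counting split reads among near-identical copies was not tested, so their separate levels are uncertain. The 15102 fragments of FP236383.2 in shNAT10 replicate 3 and the 13012 of FP236383.3 in shNC replicate 2 made up 57.3% and 39.8% of all member fragments in those libraries.

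AC073569.2 was at 550, 416 and 656 in shNC and at 110, 3.77 and 1141 with the shNAT10 label, so its groups overlapped through replicate 3. Its difference was -2.66 (SE 0.92, limma adjusted p = 0.615). Without shNAT10 replicate 3 it was -4.53, with a limma adjusted p of 0.0167 when the filter was applied to the remaining 5 libraries and 0.690 when it was applied to all 6. Without shNAT10 replicate 2 it was -0.58 (limma adjusted p = 0.798 and 0.810 with these filters). The size of this difference thus depended on which library was left out. LINC02086, at chr17:48642627-48707346, had 84.5, 86.8 and 8.47 in shNC and 167, 188 and 117 with the shNAT10 label. The groups did not overlap, but shNC replicate 3 lay far below the others, and the difference of 1.91 (SE 1.17, limma adjusted p = 0.754) did not pass.

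The remaining members of the 20 most abundant were uneven as well. AC106820.5 had 427, 115 and 99.3 in shNC and 276, 123 and 53.2 with the shNAT10 label. AC021224.1 lay between 76.7 and 214 in 5 libraries and at 2.92 in shNAT10 replicate 3. AC002070.1 was at 0 in that same library and at 818 in shNAT10 replicate 1. In AC021224.1 and AC002070.1 the gap within the shNAT10 label was wider than the fitted differences between the groups, -1.02 and 0.12 on the log2 scale. AP001527.2, AC097381.1 and AC092378.1 were each at 0 in shNAT10 replicate 2 alone, while AL138478.1 was at 0 in shNAT10 replicate 1 alone. AP001107.1 had 1 fragment (FPKM 0.239) in shNAT10 replicate 2 and FPKM 30.4 to 111 elsewhere. AC010336.3 ranged from 0.875 to 214, AC092171.2 from 9.74 to 99.9, and LINC00987, at chr12:9240073-9262901, from 5.07 to 47.7. None of these passed the test between the groups.

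**Figure D1:**
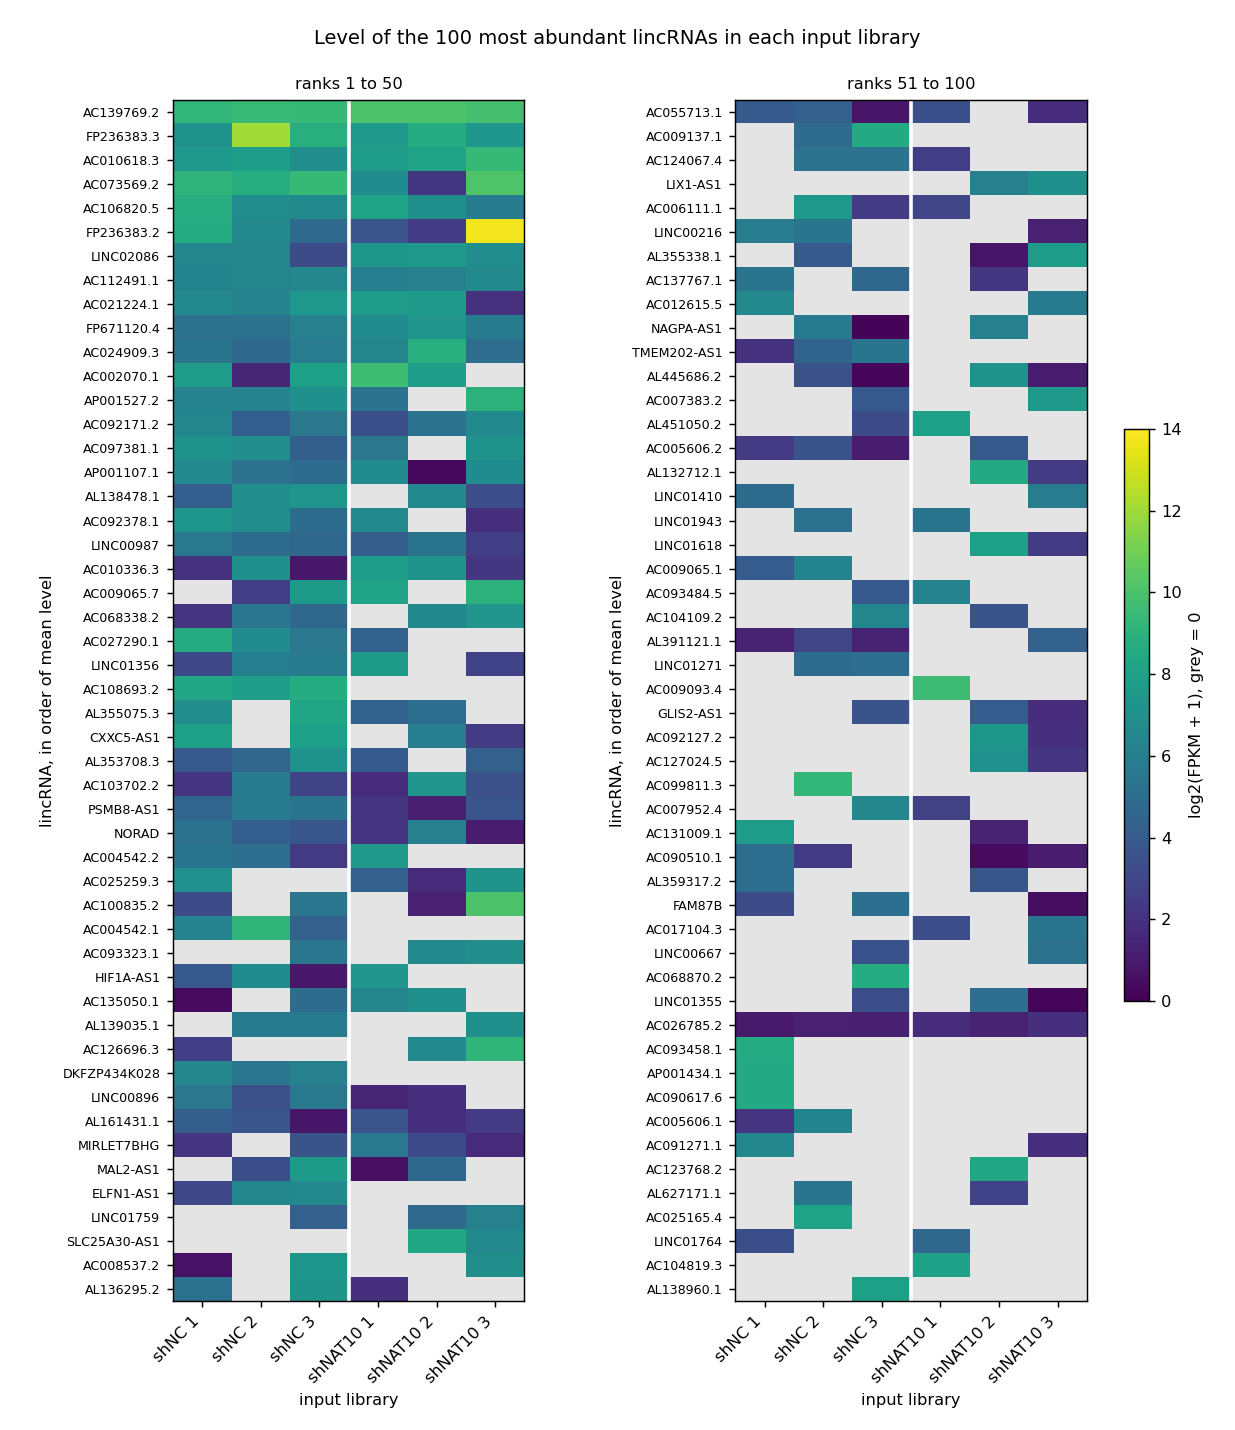
Colour gives log2(FPKM + 1) of each lincRNA (rows, in order of mean level) in the 3 shNC and 3 shNAT10 input libraries (columns), and grey marks a value of 0. Grey covers 249 of the 600 values and grows down the ranking, while rows such as AC139769.2 and AC112491.1 keep 1 colour across all 6 libraries.

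Detection differed from library to library. Only 20 of the 100 members were above 0 in all 6 input libraries, 11 in 5, 14 in 4, 20 in 3, 25 in 2 and 10 in 1. Of all 10517 tested genes, whose mean FPKM was 1 or more, 22.6% were above 0 in all 6, 16.0% in 5, 15.6% in 4, 16.0% in 3, 15.3% in 2 and 14.5% in 1. Among member values 41.5% were 0, against 38.1% over all tested genes and 34.5% over the 8140 protein-coding ones. All 100 members passed that filter, and because they were ranked by level these shares are descriptive.

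**Figure D2:**
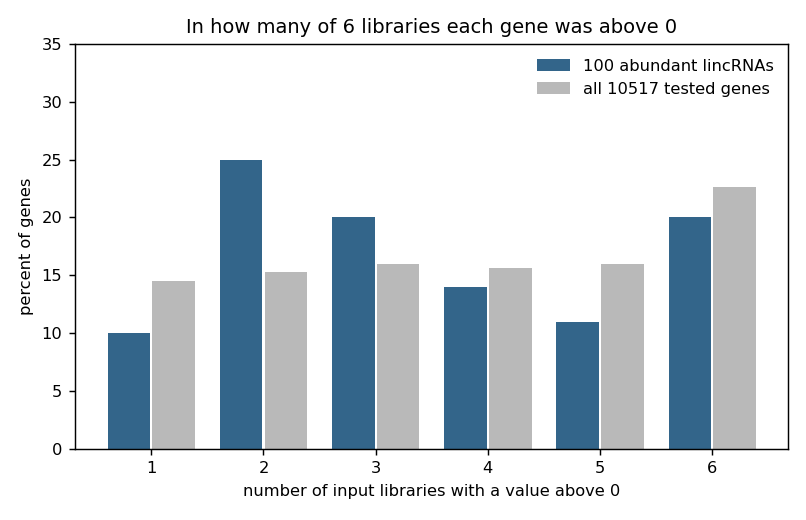
Bars give the percent of the 100 lincRNAs (blue) and of all 10517 tested genes (grey) that were above 0 in 1 to 6 input libraries. The lincRNAs stand at 25 for 2 libraries, where tested genes stand at 15.3%, and at 20 for 6 libraries, where tested genes stand at 22.6%.

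Zeros were not confined to members of few fragments. At least 100 fragments in some library were recovered for 88 members, and 70 of these were at 0 in another library. Within shNC, 74 members had at least 100 fragments in 1 library and 39 of them were at 0 in another shNC library. Within the shNAT10 label the numbers were 50 and 32. PCR copies were not marked, so fragments are not independent molecules. Among the 20 members above 0 throughout, 4 stayed within 5-fold (AC112491.1, AC139769.2, AC026785.2 and FP671120.4) and 4 ranged beyond 100-fold (AC010336.3, AC073569.2, AP001107.1 and FP236383.2).

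The 10 members above 0 in 1 library entered the ranking through that library alone, with FPKM of 243 to 768. They were AC093458.1, AP001434.1 and AC090617.6 in shNC replicate 1, AC099811.3 and AC025165.4 in shNC replicate 2, AC068870.2 and AL138960.1 in shNC replicate 3, AC009093.4 and AC104819.3 in shNAT10 replicate 1, and AC123768.2 in shNAT10 replicate 2. Their recovered fragments numbered 13 to 599 with a median of 372.5, a lower limit where the count and the length share a factor. Of the 25 members above 0 in 2 libraries, 11 had both in 1 group and 14 had 1 in each.

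A library held 64, 58 and 70 members above 0 in shNC, or 64 ± 6 (SD, n = 3), and 48, 53 and 58 with the shNAT10 label, or 53 ± 5 (SD, n = 3). The groups met at 58. At the depth of the shallowest library, 62.9 ± 5.03 and 53 ± 5.03 members (SD, n = 3) would be expected above 0, a figure that treats fragments as independent and covers counting error only. Of tested genes, 67.6% ± 0.797 (SD, n = 3) were above 0 in shNC and 56.1% ± 4.50 (SD, n = 3) with the shNAT10 label. Total RNA cannot tell fewer cells that express a gene from less RNA per cell.

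Members took 0.911%, 1.24% and 0.897% of fragments in shNC and 0.885%, 1.17% and 2.16% with the shNAT10 label, so the groups overlapped. Without FP236383.2, FP236383.3 and FP671120.4 the shares were 0.846%, 0.731% and 0.834% in shNC against 0.856%, 1.10% and 0.902%. Without these genes the lowest share under the shNAT10 label (0.856%) was just above the highest under shNC (0.846%). They were set aside after their values were seen, and this gap was not tested, so nothing is read from it.

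**Figure D3:**
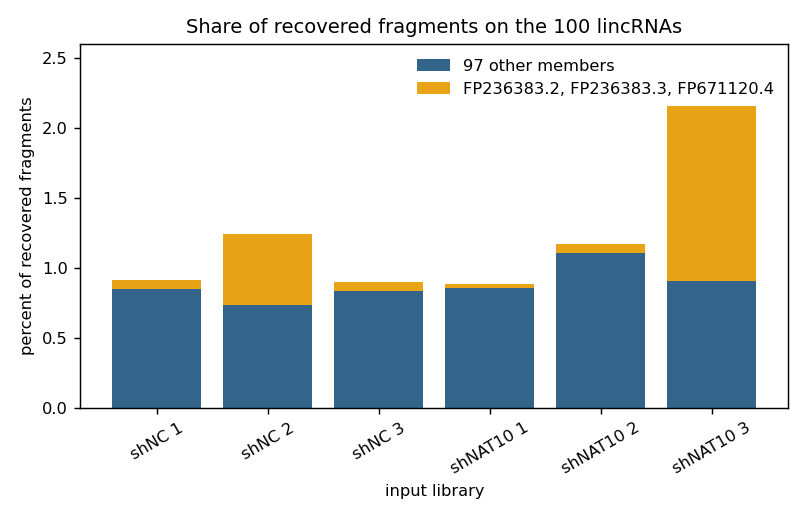
Bars give the percent of recovered fragments that fell on the 100 lincRNAs in each input library, with the 3 FP-named genes in yellow and the other 97 in blue. The yellow part sets shNC replicate 2 (1.24%) and shNAT10 replicate 3 (2.16%) apart, and the blue part lies between 0.731% and 1.10% in every library.

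In the comparison of hairpins, AC108693.2 was the 1 member past the test. It entered the ranking only through shNC, so its level fixed the size of its difference. Under shNC it had FPKM 335, 228 and 409, from 343, 227 and 425 fragments, and every library with the shNAT10 label was at 0. The difference was -8.30 on the log2(FPKM + 1) scale (SE 1.62, 95% interval -11.5 to -5.10, limma with Benjamini-Hochberg adjustment, adjusted p = 0.001061). Against a floor of 3 fragments per library, which covers counting error only, that is at least 44.2-fold. The zeros beside many fragments within 1 group, given above, show that a 0 in these libraries does not bound a level. The call held in 12 of 25 alternatives, with adjusted p from 6.31e-05 to 1.00, and leaving out any 1 of the shNC replicates 1, 2 or 3 ended it (adjusted p 0.628 to 0.779).

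Of all tested genes, 0.19% passed in either direction and 0.105% fell, against 1 of 100 members in both cases. Of 255 lincRNAs tested, 1 passed, which is this gene. At an unadjusted p under 0.05 there were 14 members against 389 tested genes, or 3.7%, and 8 of the 14 were at 0 under 1 hairpin, so that their level had set their difference. Nothing about the members is read from these shares. With voom and a trend on the recovered fragments, ELFN1-AS1, DKFZP434K028 and TMEM202-AS1 passed beside AC108693.2, which made 4 of 100 members against 0.903% of tested genes. All 4 were at 0 in every library labelled shNAT10 and entered the ranking only through shNC. Their level had therefore set their difference, and nothing is read from this share either. The fit draws each SE toward genes of like level, with 212.6 prior degrees of freedom, so p-values rest mostly on the spread of other genes.

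The median fitted difference over the members was -0.90, against -0.49 over all tested genes, and 60 members had a negative difference and 40 a positive one. Of all tested genes 58.8% had a negative difference. In the 20 members above 0 in all 6 libraries the median was -0.19, with 12 negative. Scaling moved the median of all tested genes to -0.74 (values made to sum alike) or -0.08 (quantile normalization), with the members at -0.998 and -0.74.

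**Figure D4:**
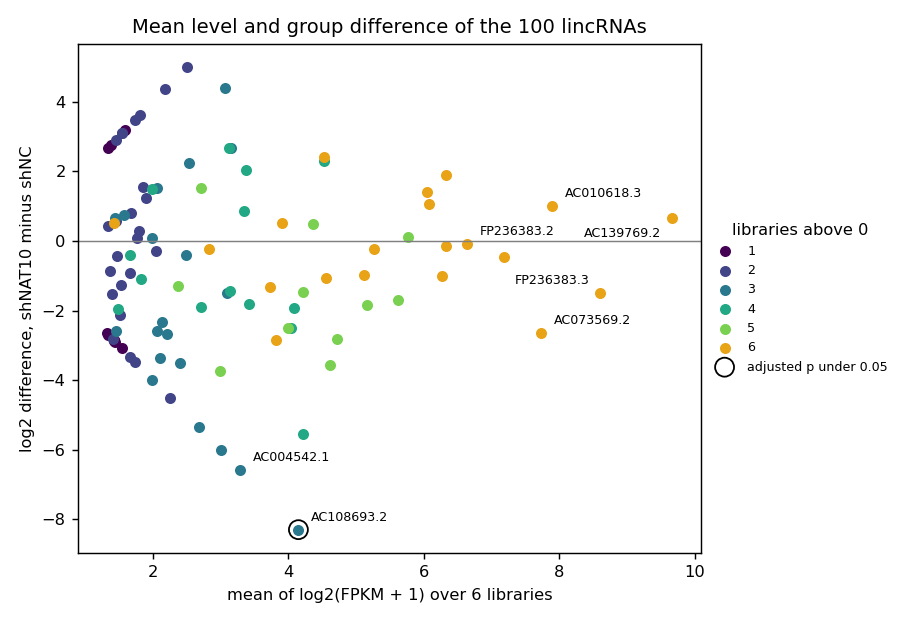
Each point is 1 of the 100 lincRNAs, placed by its mean log2(FPKM + 1) and its log2 difference between the libraries labelled shNAT10 and shNC, and coloured by the number of libraries above 0. The ring marks AC108693.2 at -8.30, the 1 member past the test, and points above 0 under 1 hairpin only lie on straight lines that their level fixes.

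In 8 members all 3 shNC libraries lay above all 3 of the other label, which 6.72% of tested genes did. Of these, 5 were at 0 in every library labelled shNAT10 (AC108693.2, AC004542.1, DKFZP434K028, ELFN1-AS1 and TMEM202-AS1). Being above 0 in all 3 shNC libraries and in none with the shNAT10 label was found for 2.36% of tested genes. The libraries with the shNAT10 label held fewer fragments, and the part of depth in these zeros was not tested.

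AC004542.1 had FPKM 75.0, 578 and 18.8 in shNC, a spread of its own within that group, and 0 with the shNAT10 label (limma adjusted p = 0.108). DKFZP434K028, named from a cDNA clone and antisense to MYRF, the myelin regulatory factor gene, had 86.7, 43.3 and 68.8, from 411 to 847 fragments. Its fitted difference was -6.02 (SE 1.80, limma adjusted p = 0.234). ELFN1-AS1, a lincRNA known from colorectal tumours, had 7.17, 85.0 and 98.3 in shNC (limma adjusted p = 0.615). TMEM202-AS1 had 3.16, 21.7 and 42.0 in shNC (limma adjusted p = 0.754). For both, shNC replicate 1 was the low library, and none of these 4 passed the test.

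The other 3 of these members had fragments on both sides. AC027290.1 was at 403, 109 and 46.4 in shNC and at 19.3, 0 and 0 with the shNAT10 label, a difference of -5.55 (limma adjusted p = 0.196). LINC00896, at chr22:20206332-20208537, was at 45.6, 10.0 and 47.9 against 1.69, 2.82 and 0, a difference of -3.75 (limma adjusted p = 0.754). PSMB8-AS1, at chr6:32844086-32846500 beside the gene of an immunoproteasome subunit, was at 22.3, 56.5 and 40.4 against 3.69, 1.37 and 12, a difference of -2.86 (limma adjusted p = 0.754). None of the 3 passed the test.

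In 3 members, all libraries labelled shNAT10 lay above all shNC libraries, which 2.89% of tested genes did. Both directions together made 11 members against 9.61% of tested genes. The 3 were AC139769.2, LINC02086 and AC026785.2. AC026785.2 had FPKM 1.02, 1.40 and 1.35 in shNC and 2.49, 1.54 and 2.89 with the shNAT10 label, but these rest on 3, 4 and 4 fragments against 3, 2 and 3. At that depth a difference was not detectable, and the fitted value was 0.53 (SE 1.79, limma adjusted p = 0.929).

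**Figure D5:**
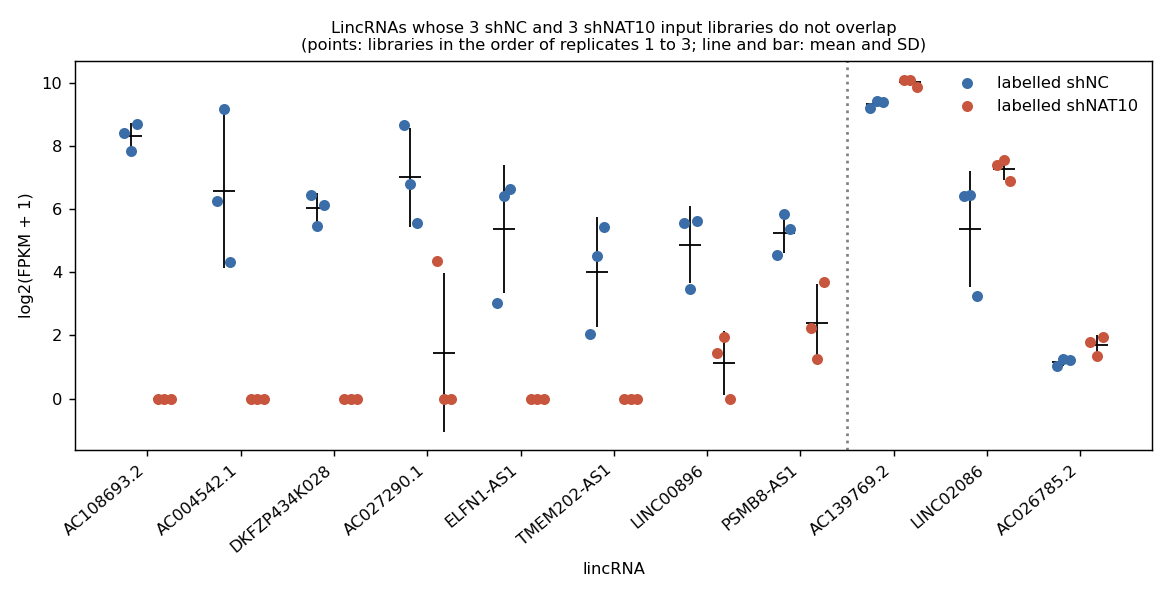
Points are log2(FPKM + 1) of the 3 shNC (blue) and 3 shNAT10 (red) input libraries for the 11 members whose groups do not overlap, with the mean as a line and the SD as a bar. Left of the dotted line shNC is above, with 5 lincRNAs at 0 in every red point, and right of it AC139769.2, LINC02086 and AC026785.2 show red above blue.

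Members detected under 1 hairpin alone numbered 16 for shNC and 10 for the shNAT10 label, beside 16.8% and 8.16% of tested genes. Of the 16, 7 were above 0 in 1 shNC library, 4 in 2 and 5 in 3, beside 9.19%, 5.26% and 2.36% of tested genes. Of the 10, 3 were above 0 in 1 library, 7 in 2 and 0 in 3, beside 5.31%, 2.40% and 0.456% of tested genes. Of those 7, 6 were above 0 in shNAT10 replicates 2 and 3: SLC25A30-AS1, LIX1-AS1, AL132712.1, LINC01618, AC092127.2 and AC127024.5, named here after their values were seen. These are also the libraries in which NAT10 was above every control, and whether both facts are linked was not tested. SLC25A30-AS1 had FPKM 0 in 4 libraries and 337 and 96.5 in those 2, and LIX1-AS1 had 67.7 and 129. In the other 4, replicate 3 rested on 2 to 4 fragments.

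The members on the lists fixed by role were NORAD and MIRLET7BHG. NORAD, a cytoplasmic lincRNA that binds Pumilio proteins and takes part in keeping the genome stable, had FPKM 37.6, 17.3 and 12.4 in shNC and 3.23, 66.3 and 1.09 with the shNAT10 label. The groups overlapped through shNAT10 replicate 2, and the difference was -1.33 (SE 1.71, limma adjusted p = 0.762). MIRLET7BHG had 3.61, 0 and 11.7 against 46.9, 7.92 and 2.19, with a difference of 1.51 (SE 1.84, limma adjusted p = 0.754). The rows of the hosted microRNA genes MIRLET7A3, MIRLET7B and MIR4763 were listed at 0 in all 6 libraries of RNA cut to 100 to 200 nt. The let-7 forms printed above are shorter than these pieces, so rows at 0 do not tell whether those forms were present.

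The lists of lincRNAs by role hold many genes that the table gives another biotype, and the rule could not take these. The lists count names, and a gene under an older and a newer name counts under each. A name not listed is therefore not always a missing gene. Of 30 lincRNAs studied in cancer, 28 were listed, 19 of them with the biotype lincRNA, 13 were above 0 and 0 were members, and of the 9 tested 0 passed limma's test and 0 had an unadjusted p under 0.05 (median difference -1.31). HOTAIR, HULC and UCA1 were among those listed at 0 throughout. Of 10 broadly expressed cytoplasmic or translation-linked lincRNAs, 8 were listed, 2 of them as lincRNA, 7 tested and 1 (NORAD) a member, with a median difference of -1.16 and 0 past the test or under an unadjusted p of 0.05. Of 10 chromatin and imprinting lincRNAs 4 were tested (median -0.78), and of 7 p53-linked ones 1 was tested (-1.41), with 0 of either past limma's test or under an unadjusted p of 0.05. Of 61 microRNA hosts 11 were above 0, 7 tested and 1 a member (median 0.16), again with 0 past limma's test or under an unadjusted p of 0.05. All these medians stand beside -0.49 for all tested genes. Over these lists, 10 genes of another biotype lay above the level of the last member, among them H19 with a mean log2(FPKM + 1) of 5.03, OIP5-AS1 with 3.10, TUG1 with 2.31 and GAS5 with 2.20.

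The exosome and its cofactors turn over many nuclear noncoding RNAs. Of 20 names of such decay factors 18 were tested, and 0 passed limma's test. Names were matched by symbol alone, and whether the row named MPP6 is the decay factor or another gene was not checked. That row (FPKM 8.68, 0 and 0.125 in shNC, and 0 with the shNAT10 label) is in the counts and sums below. An unadjusted p under 0.05 was found for 1 of the 18, beside 3.7% of tested genes, and the median difference was -1.48. Their summed FPKM was 149 to 210 in shNC and 24.7 to 105 with the shNAT10 label. XRN2, a nuclear exonuclease, was the most abundant, with FPKM 0.0860, 16.7 and 8.32 in shNC and 44.4, 5.24 and 14.6 with the shNAT10 label. EXOSC4, a core exosome subunit, had 42.4, 4.11 and 3.32 against 0, 31.8 and 0. XRN2 and EXOSC4 overlapped between the groups. The factor with an unadjusted limma p under 0.05 was EXOSC3, with FPKM 30.3, 29.2 and 6.18 in shNC and 0 in every library with the shNAT10 label. ZCCHC8 too was above 0 in every shNC library and at 0 with that label. EXOSC6 went the other way, at 0 in every shNC library and at 3.49, 6.09 and 0 with the shNAT10 label. Of tested genes, 2.36% were above 0 in all 3 shNC libraries and in none with the shNAT10 label. EXOSC3, ZCCHC8 and EXOSC6 were each at 0 under 1 hairpin, so their level had set the size of their difference. Nothing is read from the p of EXOSC3 or from the share of 1 of 18. These genes were named after their values were seen. The part of the decay factors in the lincRNA levels was not tested.

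Members seldom carried a deposited ac4C peak. In the authors' deposited table, 4 of 2364 differential peaks lay in 3 of the 100 members, or 3.0%, against 15.4% of tested genes and 19% of tested protein-coding genes. Over all lincRNAs the authors' deposited table gave 18 peaks in 5 genes. All 4 were of class exon, and which hairpin stood in the numerator of the deposited log2 change was not stated, so signs give no direction. Peak values are the authors' own.

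LINC00216, at chr14:58288033-58289153, had 2 overlapping entries on the plus strand in the authors' deposited table, at chr14:58288122-58288447 and chr14:58288121-58288443 (GRCh38). Both had a fold enrichment of 191 in that deposited table, with log2 changes of 7.20 (FDR 2.95e-05) and 7.46 (FDR 3.55e-06), and each held 1 motif site, at the same position. Its input level was FPKM 61.2, 41.9 and 0 in shNC and 0, 0 and 1.48 with the shNAT10 label, so input fragments were found in 3 of 6 libraries and mainly in 2 of shNC.

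AC024909.3 had a peak at chr12:89352084-89352232 on the plus strand, with a fold enrichment of 6.17, a log2 change of 2.51 and an FDR of 0.00115 in the authors' deposited table, and 1 motif site. Its input was 40.9, 25.8 and 57.8 in shNC and 84.2, 460 and 31.1 with the shNAT10 label. AC004542.2 had a peak at chr22:30976888-30978848 on the minus strand, in 2 blocks of 45 and 128 nt, with a fold enrichment of 158, a log2 change of -5.44 and an FDR of 0.0339 in that deposited table, and 0 motif sites. Its input was 42.8, 34.0 and 4.28 against 190, 0 and 0. None of the 3 genes passed the input test (limma adjusted p = 0.754 each), and their groups overlapped.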

How the data were processed

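Gene levels are the FPKM the authors deposited for 6 input libraries, with columns named NC matched to shNC by title and columns named sh taken as shNAT10 by elimination; 0 value columns stayed unmapped. Per the submitters' processing notes, cutadapt 2.5, HISAT2 2.1.0 and HOMER 4.10.4 were named, with builds GRCh38 and GRCm38. The role of each, the counting tool, strand setting, annotation, peak caller and pooling are not given in the sources used here. Of 2190 deposited peaks with a RefSeq gene on their chromosome, 98.4% lay inside it in GRCh38. Positions are printed counting from 1. Per the file headers, the authors' peak table gives a fold enrichment ratio, a log2 change and log10 p-values or FDR, and other columns hold block sizes and motif sites.

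Whole fragments were recovered from the deposited FPKM for 15011 of 15014 genes above 0 (relative tolerance 1e-11), in lowest terms, so a length or count may be understated. The authors' FPKM denominator was 0.980 to 1.27 times their sum. The group test was limma 3.58.1 (R 4.3.3), with a trend in eBayes, applied to log2(FPKM + 1) of genes whose mean FPKM was 1 or more. Benjamini-Hochberg adjustment was over all 10517, with a threshold of 0.05. The fit was checked on simulated data whose replicates spread less than these libraries. That check does not cover zeros beside many fragments within 1 group. Differences understate changes of low genes. Same-numbered libraries did not deviate together (correlations 0.00, -0.02 and 0.01), so no block was used.

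The members and lists were chosen with earlier results of these data known. Named were the 20 most abundant members, those past the test, up to 10 per direction whose groups do not overlap, those with a peak, those on a list, ranks 98 to 103, NAT10, and from the list of decay factors those past the test or else the most abundant 2. Alternatives were other pseudocounts, filters, scalings, moderation, voom, a replicate block, other rankings and each replicate left out.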

Additional observations from a re-analysis of the deposited data

How the results depend on the processing

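The count of 20 genes past limma's test, 1 of them a member, moved with the settings. It was 7 with a pseudocount of 0.01, 10 with a mean FPKM of 5 or more, 0 with no filter or without trend, and 1 with voom on recovered fragments. Members past the test numbered 0 under the last 3 of these. The median member difference of -0.90 was -1.12 with a pseudocount of 0.1, -1.42 with one of 0.01 and -0.66 with voom. Leaving out each replicate in turn gave 1 to 34 genes past the test, 0 to 2 members and medians of -0.60 to -1.10. The lowest counts, 1 gene and 0 members, came without any 1 of shNC replicates 1, 2 or 3, and the most members without shNAT10 replicate 3. With the replicate number as a block, members past the test stayed at 1 and the median at -0.90, and the block changed no call of a named member. Ranking by the median over libraries kept 65 of the 100 members.

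Chosen after seeing the data, 3 further settings were run. With the filter over all 6 libraries, leaving out each replicate gave 0 genes and 0 members past the test, with medians of -0.48, -0.57 and -0.74 without shNC replicates 1, 2 and 3, and -1.09, -0.51 and -0.95 without shNAT10 replicates 1, 2 and 3. Voom with trend gave 95 genes and 4 members (median -0.66). Leaving out shNAT10 replicates 2 and 3, in which NAT10 was above every control, gave 0 genes, 0 members and a median of -1.69. The cause was not tested. For single named members, 795 of 897 values under other settings were labelled unchanged and 85 moved by more than 1 SE. Of the rest, 13 lost a call and 4 gained one, and 0 reversed among called members. For AC108693.2, called in the main fit, unchanged means only that the call held. Its difference was -11.6 with a pseudocount of 0.1 and -14.9 with one of 0.01, against -8.30 (SE 1.62). For members at 0, counting error alone leaves room for 3 fragments, or FPKM 0.497 (LIX1-AS1) to 26.1 (AC099811.3).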

Other observations

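The 10 members named as antisense were set beside the protein-coding genes they are named for. Of these partner genes, 4 (ELFN1, LIX1, NAGPA and TMEM202) were listed at 0 in all 6 input libraries, although ELFN1-AS1, LIX1-AS1, NAGPA-AS1 and TMEM202-AS1 were members. HIF1A, the hypoxia-inducible transcription factor subunit, was the steadiest partner, with FPKM 30.9, 43.3 and 14.4 under shNC and 49.3, 39.8 and 45.4 with the shNAT10 label. HIF1A-AS1 had 13.6, 112 and 0.895 under shNC and 154, 0 and 0 with the shNAT10 label. GLIS2, a zinc finger transcription factor, was above 0 in 5 libraries, from 20.2 to 71.5, and at 0 in shNC replicate 3, one of the 3 libraries in which GLIS2-AS1 was above 0, at 11.2.

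PSMB8, an immunoproteasome subunit, was above 0 in 2 libraries, at 9.75 in shNC replicate 3 and 5.74 in shNAT10 replicate 1, whereas PSMB8-AS1 was above 0 in all 6. CXXC5, a zinc finger protein, was above 0 in replicate 3 of each label, at 81.1 and 39.4. CXXC5-AS1 had 248, 0 and 235 under shNC and 0, 61.3 and 4.34 with the shNAT10 label. SLC25A30, a mitochondrial carrier, did not exceed 1.61 in any library, and SLC25A30-AS1 reached 337. MAL2, a membrane trafficking protein, ranged from 0 to 27.6 and MAL2-AS1 from 0 to 197. Whether the authors counted by strand was not stated, so fragments from a gene and its antisense partner cannot be told apart where they overlap.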
